A study of Rattus norvegicus with 11 samples.

Results

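Interferon-stimulated genes are the genes that cells switch on when an interferon binds its receptor at the cell surface. Type I and type III interferons act through the kinases Jak1 and Tyk2 and a complex that includes Irf9, which binds the interferon-stimulated response element (ISRE). Interferon gamma acts through Jak1 and Jak2, and genes that respond to it often carry the gamma-activated site (GAS). The induced proteins block the replication of viruses, present antigens to T cells and recruit lymphocytes, and in the intestine interferons act on epithelium as well as on immune cells.

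The genes described here were 49 interferon-stimulated genes chosen by their symbols, with earlier results of these data known. All 49 were found among the 24481 genes with read counts and the 24205 genes with FPKM, a level in which the fragments of a gene are scaled to its length and to the depth of the library. They fell into 11 groups by role, from the 4 IFIT proteins to the 5 genes of antigen processing. They had a mean FPKM of 1 or more in 48 of 49 cases, and all 49 passed the filter on low counts in each of the 3 comparisons. Before that filter their read counts ranged from 4 reads for Ifit1 in 1 JZL184 library to 19349 for Isg15 in 1 SAP library.

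RNA came from the ileum of male SD rats of 6 to 8 weeks, a wild-type outbred stock. In the SAP group, severe acute pancreatitis was induced with 3% sodium taurocholate injected into the pancreatic duct, and vehicle was then given intraperitoneally. The JZL184 group had the same pancreatitis and received JZL184, an inhibitor of the enzyme MAGL (monoacylglycerol lipase), at 10 mg/kg in that vehicle. The control group received vehicle, and the sources used here do not describe an operation for it separately. The intraperitoneal injection of JZL184 or vehicle followed the grouping of the rats, which was done 24 h after the surgery. All rats were killed 24 h after this intraperitoneal injection, and so later than 24 h after the taurocholate. The labels give a control plasmid as treatment of the control rats, and the library names of the SAP group carry the word oil, where the protocol speaks of vehicle in both groups. Any change was therefore measured in whole ileum at 1 time point and 1 dose, and no group received JZL184 without pancreatitis.

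There were 3 control, 4 SAP and 4 JZL184 libraries, with 26341299 to 33847135 reads on genes. Counts of control libraries 1 and 2 were nearly the same (chi-square per gene 2.81, where other pairs within a group had 77.5 to 563) and were counted as 1 sample, which left n = 2 in the control group. SAP library 2 had 20 reads on Y-linked genes and 7826 on Xist, while the others had 1222 to 4665 and 0 to 56, so that this library did not match the male sex given for the rats. For each comparison that uses SAP, the median over all members is therefore also given without it. Values of single genes and role groups include it unless stated. The labels name the cells as intestinal epithelial, and the epithelial marker Epcam was at 2219.79 FPKM or more in all libraries. Smooth muscle markers summed to between 315 and 1821 FPKM over all libraries, so the samples also held RNA of other layers. In such tissue fewer cells of a type and less RNA per cell cannot be told apart. Whether libraries of a group came from separate litters or days is not given, and p-values measure the spread between these samples.

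The letters that define the family were looked for in its promoters, because they show which members carry a known docking sequence for Stat and Irf proteins. Promoters of 39 of the 49 genes, from 250 bases before to 50 bases after the start, were given in the RefSeq table of the rat build GRCr8. The ISRE core (GAAANNGAAA, either strand) was present in 26 of these 39 promoters (66.7%), against 4.12% of the promoters of 27457 genes. The GAS core (TTCNNNGAA, which reads the same on both strands) was present in 10 of 39 (25.6%), against 9.39% of all genes. Of 27 further interferon-stimulated genes with a promoter in the table, 17 (63.0%) held the ISRE core. Isg15, Ifit1, Ifit2, Rtp4, Dhx58, Mx2, Oas2, Usp18, Zbp1 and Nlrc5 had no entry. The windows below are those of members on which the results turn, written 5′ to 3′ along the gene, with the matched core in capitals. A match describes letters and not a bound site.
Ifit1bl, ISRE on the reverse strand, chr1:241543656-241543685, gene on the minus strand: cctctctaggTTTCGTTTTCtctaagctgg
Oas1a, ISRE, chr12:41330421-41330450, plus strand: tcgggaaatgGAAACTGAAAatcttgttcc
Oas3, ISRE, chr12:41439627-41439656, plus strand: gcagagaggaGAAAACGAAAgtgaatgatc
Oasl2, ISRE on the reverse strand, chr12:47383317-47383346, minus strand: aaagctttggTTTCAGTTTCcaggcttgag
Eif2ak2, ISRE, chr6:21941128-21941157, plus strand: agtccgccggGAAAACGAAAcagagagaac
Irf9, GAS, chr15:33065727-33065755, plus strand: accacgtgatTTCTAGGAActgcacctcc
Cxcl10, ISRE, chr14:15988816-15988842, plus strand: cgctttgGAAAGTGAAActtaactcac
Cxcl11, GAS, chr14:15973478-15973496, plus strand: TTCTAGGAAaagtcaccta
Psmb9 and Trim25, which are described below, had a promoter in the table without either core. Oas1a held 2 overlapping ISRE cores and a GAS core.

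Across libraries, the interferon-stimulated genes were spread most within the SAP and JZL184 groups. The median over the 49 genes of the ratio to the control mean FPKM was 1.54, 0.82, 0.80 and 1.90 in SAP libraries 1 to 4. It was 0.50, 0.55, 0.94 and 0.39 in JZL184 libraries 1 to 4. SAP library 4 lay above every control sample in 41 genes and below every control sample in 1, Irf1. SAP library 2 lay below every control sample in 29. JZL184 libraries 1, 2 and 4 lay below every control sample in 40, 35 and 41 genes, whereas JZL184 library 3 did so in 23. Shares over all genes were not computed for these counts of single libraries. A stricter criterion, that the whole JZL184 group lay below both control samples in normalized counts, was met by 22 members (44.9%). It was met by 19.3% of all genes, a share that does not apply to the single libraries. With control libraries 1 and 2 as 1 sample, SAP library 4 was the highest of the 10 samples in 22 genes and SAP library 1 in 12, while JZL184 library 4 was the lowest in 17. The heat map of all members shows these libraries side by side.

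**Figure D1:**
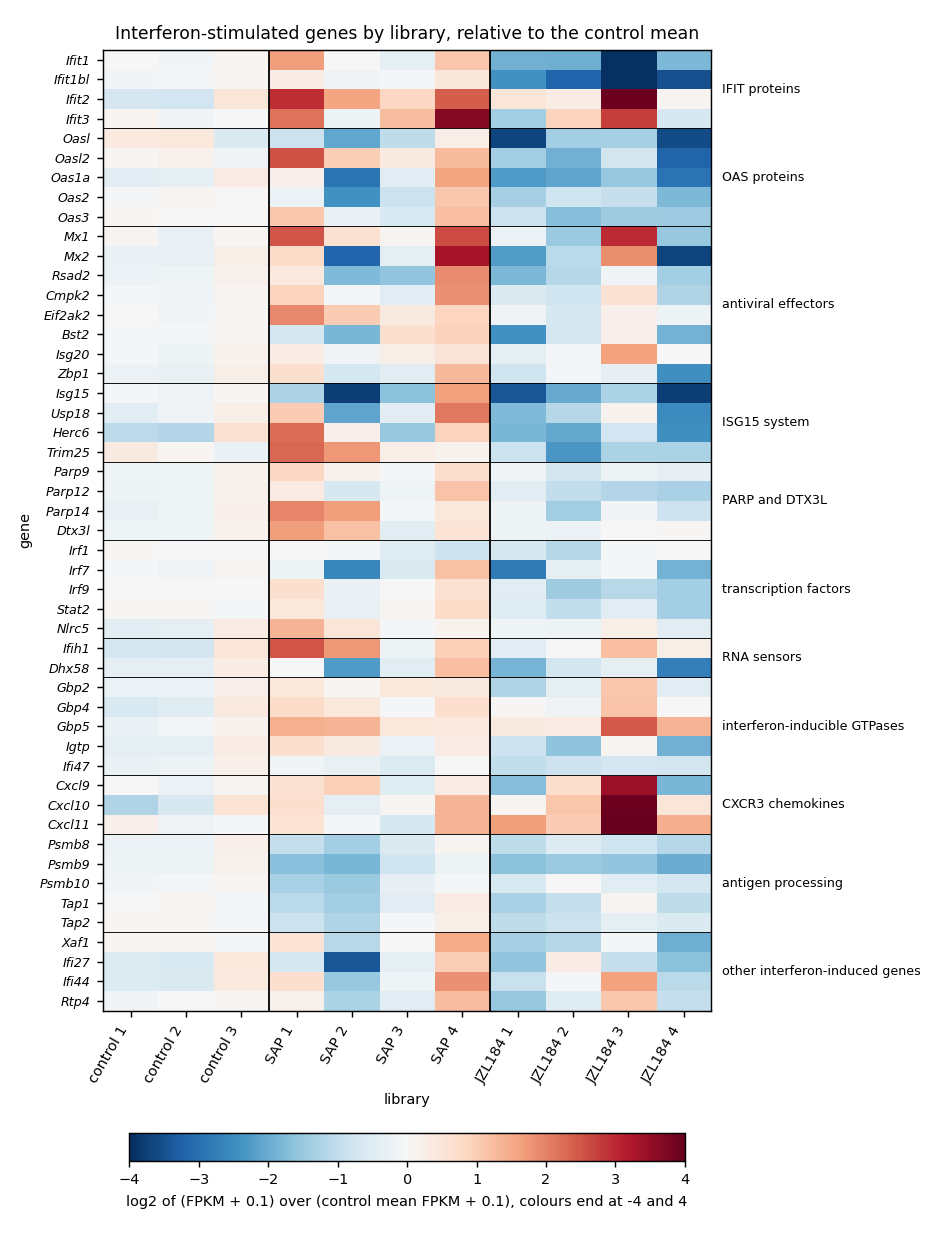
Each row is an interferon-stimulated gene, grouped by role, and each column a library; colour gives the log2 of FPKM + 0.1 over the control mean FPKM + 0.1 (red higher, blue lower, colours end at -4 and 4). SAP library 4 is red in most rows (median ratio 1.90), JZL184 libraries 1, 2 and 4 are mostly blue (0.50, 0.55 and 0.39), and JZL184 library 3 is red for the CXCR3 chemokines and deep blue for Ifit1 and Ifit1bl.

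Which of these genes differed in rats with pancreatitis and without JZL184 was addressed by SAP against control. Pancreatitis and its operation cannot be told apart, as no separate operation is described for the controls. No member was called (edgeR's quasi-likelihood test with Benjamini-Hochberg adjustment, adjusted p below 0.05 and fold change above 2 or below 0.5), with adjusted p from 0.459 to 0.997. Of all 16029 genes tested 0% were called, at a smallest adjusted p of 0.0967. By mean, 36 members were higher and 13 lower, with a median log2 fold change of 0.28 against 0.06 over all genes tested. At an unadjusted p below 0.05 there were 1 higher member, Ifit2, and 0 lower ones, against 5.69% and 3.4% of all genes. Counts normalized by edgeR did not overlap between the groups for 4 higher members (Ifit2, Oasl2, Eif2ak2 and Gbp5) and 3 lower ones (Irf1, Psmb9 and Psmb10), that is 8.16% and 6.12% of the members against 11.3% and 11.9% of all genes. On the FPKM scale Irf1, Psmb9 and Psmb10 overlapped. DESeq2, limma-voom and edgeR with separate control libraries called 0 members as well, where they called 1.23%, 0.0873% and 0.213% of all genes, or 0.86% higher and 0.365% lower with DESeq2. That DESeq2 fit counted control libraries 1 and 2 as 1 sample. With separate control libraries, as in the paper, DESeq2 called Ifit2, Ifit3 and Mx1, and the share of all genes is not given. The median was −0.17 without SAP library 4, and 0.46 without SAP library 2.

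Whether JZL184 changed these genes in rats with pancreatitis was addressed by JZL184 against SAP. Here 40 of the 49 members were lower and 9 higher by mean, with a median log2 fold change of −0.95 against −0.05 over all genes. No member was called, with adjusted p from 0.0604 to 0.972, where 0% of 15308 genes were called. At an unadjusted p below 0.05 there were 16 lower members (32.7%) and 1 higher member, Cxcl11, against 11.1% and 10.3% of all genes. Normalized counts did not overlap for 9 members, all lower (Ifit1, Ifit1bl, Oasl2, Oas3, Eif2ak2, Trim25, Parp9, Parp14 and Irf9), or 18.4% against 5.59% of all genes, and for 0 higher members against 6.23%. DESeq2 called 10 members lower (20.4%) where it called 6.98% of all genes and 3.41% lower, and limma-voom called 4 where it called 2.39% lower. Without SAP library 4 the median was −0.28, and without SAP library 2 it was −1.13.

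JZL184 against control sets the treated rats with pancreatitis beside rats without it. Of the 49 members 37 were lower and 12 higher by mean, with a median log2 fold change of −0.72 against 0.08 over all genes. The 3 members called were all lower: Ifit1bl, Oas1a and Psmb9. They are 6.12% of the members, where 2.16% of 15916 genes were called and 1.14% were called lower. At an unadjusted p below 0.05 there were 18 lower and 2 higher members, against 12.5% and 13.8% of all genes. Normalized counts did not overlap for 22 lower members (44.9%, against 19.3% of all genes) and for 2 higher ones, Gbp5 and Cxcl11, against 18.9%. DESeq2 called 11 members lower and 1 higher where it called 10.8% of all genes, 4.99% lower and 5.8% higher. Limma-voom called 18 members, all lower, where it called 18.3% of all genes and 9.78% lower. With separate control libraries edgeR called 11 members, all lower except Cxcl11, where it called 18.1% of all genes, 8.06% lower and 10.1% higher. Both comparisons of JZL184 use the same 4 JZL184 libraries, so their values stand side by side and are not independent of each other. Without JZL184 library 2 or 4 no member was called, and without JZL184 library 3 there were 8. For these fits the share of all genes is not given. Leaving out control library 3 also gave 0, but it leaves 1 control sample, which is then assumed to vary like the JZL184 libraries.

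**Figure D2:**
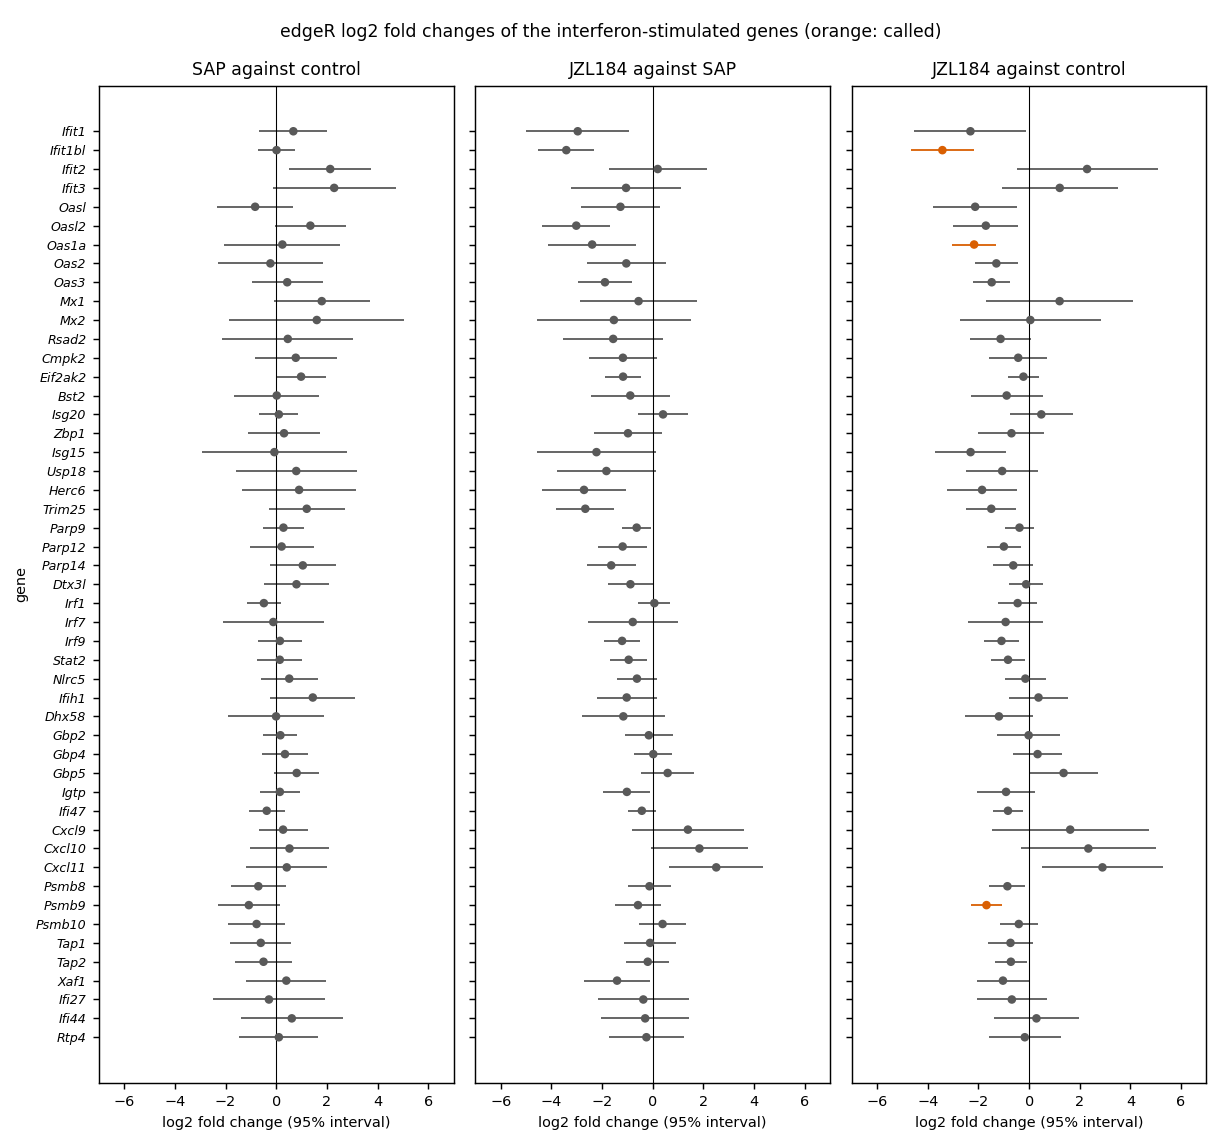
Points are edgeR log2 fold changes of the 49 genes and bars their 95% intervals, in 3 panels for SAP against control, JZL184 against SAP and JZL184 against control; orange marks called genes. Most points lie right of 0 in the first panel (36 of 49) and left of 0 in the others (40 and 37 of 49), and the only orange points are Ifit1bl, Oas1a and Psmb9 in the last.

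The IFIT proteins, which bind viral RNA and block its translation, did not move as 1 block. Ifit1bl was at 7.58, 7.96 and 8.58 FPKM in control libraries 1 to 3, at 10.03, 7.46, 7.99 and 11.23 in SAP libraries 1 to 4, and at 1.43, 0.82, 0.24 and 0.62 in JZL184 libraries 1 to 4. Each JZL184 library was below every library of the other groups. It fell by 3.43 on the log2 scale against control (SE 0.55, adjusted p = 0.0261, 10.7-fold lower), and its log2 difference from SAP was −3.41 (SE 0.50, adjusted p = 0.0604). Its SAP and control levels differed by 0.01 (SE 0.31, adjusted p = 0.985).

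Ifit1 was also lowest in JZL184, with 14.16 to 16.09 FPKM in the control libraries, 49.22, 15.51, 11.91 and 33.55 in SAP, and 3.96, 3.93, 0.06 and 4.36 in JZL184. The value of 0.06 in JZL184 library 3 came from 4 reads. Its log2 difference was −2.96 against SAP (SE 0.92, adjusted p = 0.136) and −2.32 against control (SE 0.97, adjusted p = 0.175). In the RefSeq gene table, which is separate from the promoter table, Ifit1 lies within the span of Ifit1bl, and both are IFIT genes, so the split of reads between them is uncertain.

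Ifit2 and Ifit3 went another way in the same library. Ifit2 was at 0.51, 0.47 and 1.26 FPKM in control, 7.37, 2.78, 1.63 and 5.11 in SAP, and 1.27, 1.10, 14.82 and 0.96 in JZL184. Every SAP library was above every control library, and JZL184 library 3 was the highest of all. The log2 difference between SAP and control was 2.13 (SE 0.70, adjusted p = 0.459), and between JZL184 and SAP it was 0.20 (SE 0.87), or −1.73 without JZL184 library 3. Ifit3, the IFIT gene with the highest mean level, was at 6.08, 5.33 and 5.73 in control, 26.02, 4.98, 13.69 and 74.39 in SAP, and 2.19, 10.67, 39.20 and 3.65 in JZL184. Its groups overlapped, with a log2 difference of 2.29 between SAP and control (SE 1.05, adjusted p = 0.459). JZL184 library 3 had the highest Ifit2 level and the lowest Ifit1 and Ifit1bl levels of all libraries, and the 4 IFIT genes lie together on chromosome 1.

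The OAS proteins make a short nucleotide chain that activates the RNA-cleaving enzyme RNase L, and Oasl and Oasl2 are their relatives. All 5 were lower by mean in JZL184 than in control, and for all 5 the normalized counts of these groups did not overlap, as in 19.3% of all genes. The median log2 fold change of the group was −1.71, and it was −1.88 against SAP and 0.24 between SAP and control. Without SAP library 4 the last of these was −0.76. Oas1a passed the test against control, and an unadjusted p below 0.05 was reached by all 5, against 12.5% of all genes in that direction. DESeq2 and limma-voom each called all 5 lower, where they called 4.99% and 9.78% of all genes lower.

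Oas1a, the most abundant of them, was at 21.04, 22.40 and 36.03 FPKM in control, 33.11, 3.73, 21.72 and 85.90 in SAP, and 5.87, 6.65, 10.05 and 3.62 in JZL184. The JZL184 libraries lay below all control libraries, while SAP library 2 lay among the JZL184 values. Oas1a fell by 2.17 against control (SE 0.38, adjusted p = 0.0351, 4.51-fold lower). Its log2 difference from SAP was −2.39 (SE 0.78, adjusted p = 0.147).

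Oasl2 was at 4.27, 4.61 and 3.73 FPKM in control, 24.29, 8.21, 5.27 and 9.91 in SAP, and 1.51, 1.0, 2.41 and 0.35 in JZL184. The groups followed each other without overlap, with SAP on top and JZL184 at the bottom. The log2 difference was 1.35 between SAP and control (SE 0.60, adjusted p = 0.459), −3.02 between JZL184 and SAP (SE 0.60, adjusted p = 0.0851) and −1.71 between JZL184 and control (SE 0.57, adjusted p = 0.114).

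Oas3 was at 2.35, 2.16 and 2.16 FPKM in control, 4.80, 1.81, 1.41 and 5.20 in SAP, and 1.17, 0.61, 0.76 and 0.74 in JZL184. All JZL184 values were below all others. The log2 difference was −1.88 against SAP (SE 0.47, adjusted p = 0.0972) and −1.48 against control (SE 0.33, adjusted p = 0.0571). Oas2 and Oasl differed from control by −1.29 and −2.13 (adjusted p = 0.09 and 0.119).

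Of the 8 antiviral effectors, all were higher by mean in SAP than in control and 7 were lower in JZL184 than in SAP, and none was called. Without SAP library 4 their median between SAP and control was −0.16, with 5 of 8 lower, and between JZL184 and SAP it was −0.27 in place of −1.07. Eif2ak2, the kinase PKR that stops translation on sensing double-stranded RNA, was at 11.57, 10.83 and 12.22 FPKM in control, 44.60, 23.96, 15.01 and 21.54 in SAP, and 10.50, 7.46, 13.41 and 10.10 in JZL184. The SAP libraries were above all the others, and JZL184 and control overlapped. The log2 difference was 0.98 between SAP and control (SE 0.43, adjusted p = 0.459) and −1.17 between JZL184 and SAP (SE 0.32, adjusted p = 0.11).

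Mx1, a GTPase that traps viral nucleocapsids, was at 1.44, 1.06 and 1.38 FPKM in control, 8.01, 2.04, 1.44 and 8.57 in SAP, and 1.11, 0.41, 11.21 and 0.39 in JZL184. SAP libraries 1 and 4 and JZL184 library 3 stood above the rest, and the log2 difference between SAP and control was 1.80 (SE 0.82, adjusted p = 0.459). Mx2 ranged from 0.93 in JZL184 library 4 to 132.53 in SAP library 4. Bst2, which tethers budding viruses to the cell and was the most abundant effector, was at 89.65, 90.55 and 100.09 in control, 58.78, 26.94, 149.35 and 180.83 in SAP, and 17.72, 58.95, 109.16 and 25.64 in JZL184. Its groups overlapped in each comparison, with log2 differences from 0.02 for SAP against control to −0.89 against either group for JZL184. The nuclease Isg20 was highest in JZL184 library 3, at 7.96 against 1.94 to 3.66 in all other libraries.

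Isg15 is a ubiquitin-like protein that is joined to other proteins, Herc6 is a ligase for it, Usp18 removes it, and Trim25 is a ubiquitin ligase that activates RNA sensing. All 4 were lower by mean in JZL184 than in either other group, with a median log2 fold change of −2.44 against SAP and −1.68 against control. Isg15 was at 275.37, 257.12 and 299.02 FPKM in control, 120.71, 20.90, 91.22 and 884.39 in SAP, and 26.18, 69.22, 118.04 and 20.52 in JZL184. SAP libraries 1 to 3 were below the control libraries and SAP library 4 was far above them, and every JZL184 library was below every control library. The log2 difference from control was −2.31 (SE 0.61, adjusted p = 0.0759) and from SAP −2.22 (SE 1.05, adjusted p = 0.252), or −0.20 without SAP library 4.

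Trim25 was at 3.49, 2.86 and 2.19 FPKM in control, 13.61, 9.17, 3.23 and 2.95 in SAP, and 1.44, 0.45, 1.06 and 1.06 in JZL184. The JZL184 libraries were below all others, and SAP libraries 1 and 2 were above all others. The log2 difference was −2.66 against SAP (SE 0.52, adjusted p = 0.0851, DESeq2 adjusted p = 6.35e-05) and −1.50 against control (SE 0.43, adjusted p = 0.0894). Herc6 and Usp18 differed from SAP by −2.71 and −1.83 (adjusted p = 0.112 and 0.255).

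**Figure D3:**
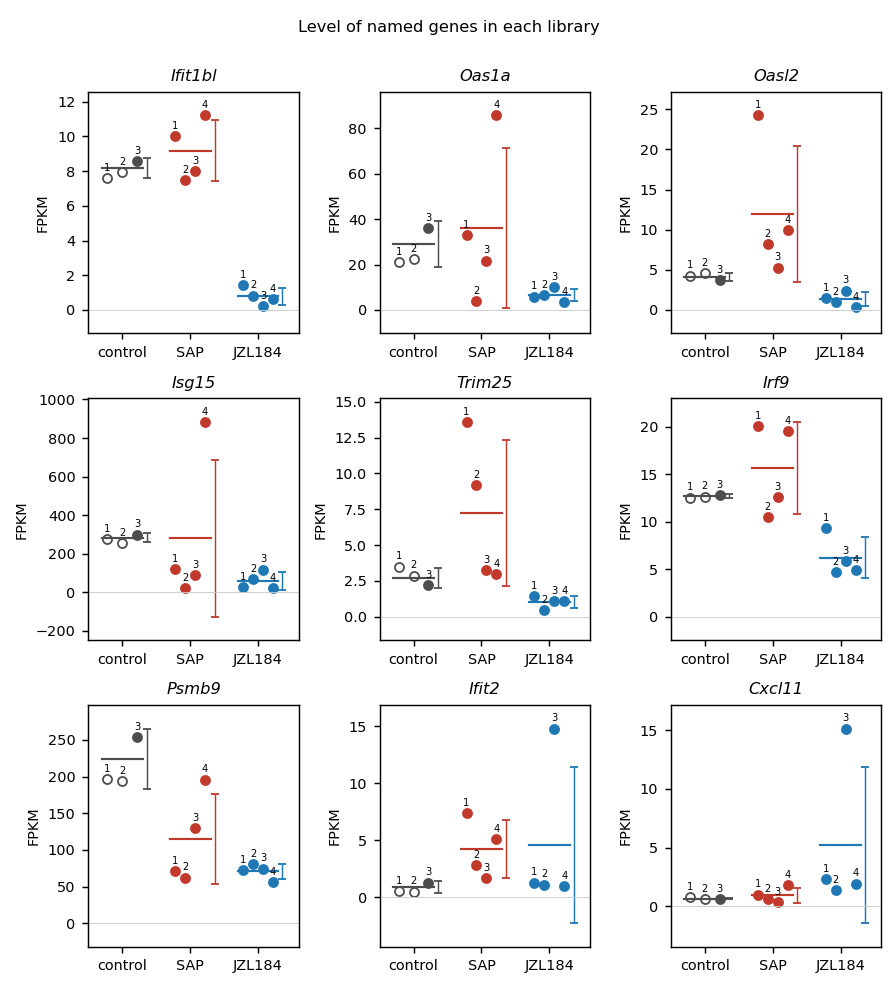
Each panel gives the FPKM of 1 gene in every library, numbered by library, for control (grey, libraries 1 and 2 open because they count as 1 sample), SAP (red) and JZL184 (blue); lines are group means and bars 1 SD, with the control mean over 2 samples. The JZL184 points lie below all others for Ifit1bl (0.24 to 1.43), Oasl2, Trim25 and Irf9, and library 3 stands alone for Ifit2 and Cxcl11 (14.82 and 15.16).

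The PARP genes and Dtx3l, which modify proteins with ADP-ribose or ubiquitin in the antiviral response, were all higher by mean in SAP than in control and all lower in JZL184 than in SAP. All 4 reached an unadjusted p below 0.05 against SAP, with adjusted p from 0.107 to 0.233. Of all genes 11.1% reached it in that direction. Without SAP library 4, 1 of the 4 was lower in SAP than in control. Parp9, the most abundant, was at 10.36, 10.25 and 12.96 FPKM in control, 20.67, 13.15, 11.18 and 18.22 in SAP, and 10.44, 6.88, 10.20 and 9.32 in JZL184. The log2 difference from SAP was −0.63 (SE 0.26, adjusted p = 0.206), without overlap of the libraries. Parp14 had a difference of −1.64 from SAP (SE 0.43, adjusted p = 0.107).

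Among the transcription factors, Irf9, the DNA-binding part of the complex that reads the ISRE, was at 12.52, 12.63 and 12.82 FPKM in control, 20.06, 10.44, 12.60 and 19.50 in SAP, and 9.33, 4.67, 5.87 and 4.90 in JZL184. All JZL184 libraries lay below all others. The log2 difference was −1.21 against SAP (SE 0.32, adjusted p = 0.106) and −1.09 against control (SE 0.30, adjusted p = 0.0805), and 0.14 between SAP and control (SE 0.37, adjusted p = 0.846). Its partner Stat2 was at 9.59, 9.53 and 8.83 in control, 12.45, 7.40, 9.84 and 15.31 in SAP, and 6.52, 4.60, 6.83 and 3.50 in JZL184, with log2 differences of −0.95 and −0.83 (adjusted p = 0.16 and 0.129). Irf1, a factor that interferon gamma induces and the most abundant of the 5, was at 44.51, 43.98 and 42.47 in control, 43.69, 41.98, 30.93 and 24.55 in SAP, and 27.57, 19.48, 41.67 and 42.45 in JZL184. Its log2 difference between JZL184 and SAP was 0.07 (SE 0.28). Irf7, which drives the making of interferon alpha, varied from 6.00 in JZL184 library 1 to 94.37 in SAP library 4.

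The 2 RNA sensors overlapped between the groups in each comparison, except that normalized counts of Dhx58 in JZL184 lay below those of control. Dhx58, the helicase LGP2, was at 6.77, 6.98 and 10.94 FPKM in control, 8.87, 1.77, 6.65 and 20.50 in SAP, and 2.39, 5.30, 6.87 and 1.26 in JZL184, with a log2 difference from control of −1.19 (SE 0.59, adjusted p = 0.236). Ifih1, the sensor MDA5, was highest in SAP library 1, at 10.23 FPKM.

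The interferon-inducible GTPases, which attack the vacuoles of intracellular microbes, had the smallest median difference between JZL184 and SAP apart from antigen processing, at −0.15. Gbp2 was at 30.17, 30.11 and 40.77 FPKM in control, 47.06, 36.31, 47.77 and 45.60 in SAP, and 15.49, 27.50, 75.72 and 26.20 in JZL184. JZL184 libraries 1, 2 and 4 were below the SAP libraries and library 3 was above them, so that the log2 difference was −0.15 (SE 0.43). Gbp5 was lowest in control, at 3.92, 4.61 and 5.29, with 13, 12.43, 6.40 and 6.34 in SAP and 6.09, 6.05, 26.69 and 12.52 in JZL184. Its log2 difference from control was 0.81 for SAP (SE 0.38, adjusted p = 0.459) and 1.36 for JZL184 (SE 0.60, adjusted p = 0.19).

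The chemokines Cxcl9, Cxcl10 and Cxcl11 attract T cells and natural killer cells through the receptor CXCR3. They were the 1 role group whose members were all higher by mean in JZL184 than in SAP, with a median log2 fold change of 1.85, and 2.34 against control. Cxcl11 was at 0.75, 0.58 and 0.62 FPKM in control, 0.99, 0.60, 0.38 and 1.81 in SAP, and 2.29, 1.39, 15.16 and 1.93 in JZL184. Cxcl9, the most abundant, was at 7.57, 6.43 and 8.11 in control, 11.64, 14.74, 5.36 and 9.52 in SAP, and 2.25, 12.38, 82.64 and 2.06 in JZL184. Library 3 carried most of the JZL184 mean of all 3 chemokines, being 6.68, 7.34 and 6.62 times the next JZL184 library for Cxcl9, Cxcl10 and Cxcl11. The log2 difference of Cxcl11 was 2.51 against SAP (SE 0.83, adjusted p = 0.15) and 2.89 against control (SE 1.04, adjusted p = 0.132). Without JZL184 library 3 it was 1.12 and 1.51, and the median of the 3 chemokines was 0.23 against SAP and 0.73 against control.

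The immunoproteasome (Psmb8, Psmb9, Psmb10) cuts proteins into the peptides that the transporter (Tap1, Tap2) carries to MHC class I, and all of these genes had their highest mean FPKM in control. All 5 genes were lower by mean in SAP than in control, with a median log2 fold change of −0.71, and all 5 were lower in JZL184 than in control, with −0.74. The median between JZL184 and SAP was −0.13, and 0.29 without SAP library 4. Psmb9 was at 196.92, 194.19 and 253.48 FPKM in control, 70.82, 62.49, 130.26 and 195.71 in SAP, and 72.34, 80.38, 74.66 and 56.51 in JZL184. The 4 JZL184 values were close together and below all control values. Psmb9 fell by 1.68 against control (SE 0.27, adjusted p = 0.0265, 3.21-fold lower), and its difference between SAP and control was −1.08 (SE 0.52, adjusted p = 0.459).

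Psmb8 was the most abundant, at 312.29, 310.04 and 417.83 FPKM in control, 194.14, 142.00, 243.20 and 392.28 in SAP, and 180.01, 255.59, 209.21 and 166.21 in JZL184. Its log2 difference between JZL184 and control was −0.86 (SE 0.31, adjusted p = 0.133). Psmb5, Psmb6 and Psmb7, the constitutive subunits that the immunoproteasome replaces, are not induced by interferon. All 3 were lower by mean in SAP than in control as well, with log2 differences of −0.87, −0.69 and −0.67 (adjusted p = 0.46 to 0.464). Their normalized counts did not overlap, as in 11.9% of all genes in that direction. In JZL184 against control Psmb5, Psmb6 and Psmb7 had −0.82, −0.23 and −0.29 beside −1.68 for Psmb9. The difference between Psmb9 and these subunits was not tested.

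Of the 4 remaining genes, Xaf1, Ifi27, Ifi44 and Rtp4, none was called. Ifi27, the most abundant, was at 129.32, 125.90 and 254.02 FPKM in control, 116.39, 17.79, 147.60 and 375.33 in SAP, and 63.52, 236.74, 99.92 and 61.79 in JZL184, and its groups overlapped. Xaf1 was lower in JZL184 with log2 differences of −1.41 from SAP and −1.03 from control (adjusted p = 0.207 and 0.182).

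Within the SAP group, libraries 1 and 2 stood apart from libraries 3 and 4 less often among the members than among all genes. SAP libraries 1 and 2 were both above SAP libraries 3 and 4 in FPKM for 10 members (Eif2ak2, Trim25, Parp14, Dtx3l, Irf1, Nlrc5, Ifih1, Gbp5, Igtp and Cxcl9), with a median gene length of 3.62 kb. They were both below for 7 (Bst2, Psmb8, Psmb9, Psmb10, Tap1, Tap2 and Ifi27), with a median length of 1.09 kb. The 5 genes of antigen processing were thus all in the second set. These are 20.4% and 14.3% of the members, against 40.6% and 36.3% of 10955 genes with a mean FPKM of 1 or more. Among all these genes, libraries 1 and 2 were above in 13.9% of the shortest tertile and in 68.9% of the longest tertile. The part of gene length in the results was not tested beyond per-library offsets fitted on length, under which the median of antigen processing in SAP against control was −0.51. Without SAP libraries 1 and 2 that median was −0.22, with 4 of 5 genes lower, and Psmb9 differed by −0.51.

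Mean FPKM was also compared by exact permutation. In JZL184 against SAP, 11 members (22.4%), all lower, had the smallest p that 4 against 4 allows (exact two-sided p = 0.0286, not adjusted), against 6.53% of all genes. In JZL184 against control, 15 members (30.6%), all lower, had the smallest p possible there (exact two-sided p = 0.0667), against 14.7% of all genes, and this design cannot reach 0.05. In SAP against control, which has the same limit, the smallest was 0.133, in 3 members (exact two-sided p). In 8 members (Ifit1, Ifit1bl, Oasl2, Oas3, Trim25, Irf9, Stat2 and Ifi47), the FPKM of all 4 JZL184 libraries was below that of every control and SAP library, which is 16.3% of the members against 4.89% of all genes.

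Members with and without an ISRE core were set side by side, without a test. In JZL184 against SAP the median log2 fold change was −0.88 for the 26 members with the core and −0.63 for the 13 without. In JZL184 against control it was −0.70 and −0.83, and in SAP against control 0.29 and 0.27. Ifit1bl and Cxcl10 both carry the core and had log2 fold changes of −3.41 and 1.85 against SAP.

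The genes around the members in the pathway were taken from lists of ligands, receptors, signal relays, sensors and feedback genes. Of 12 interferon genes listed, 4 were found. Ifna1, Ifnk and Ifnl3 were at or near 0 in all libraries, and Ifng was at 0.14, 0.06 and 0.92 FPKM in control, 0.42, 0.71, 0.19 and 0.12 in SAP, and 0.11, 0.07, 0.52 and 0.14 in JZL184. No ligand passed the count filter in either comparison of JZL184. None of the 6 receptor genes was called, and all 6 were higher by mean in JZL184 than in control, with a median log2 fold change of 0.63. Ifnar1, a chain of the type I receptor, was at 3.96, 3.76 and 3.69 in control, 4.99, 6.22, 4.65 and 4.99 in SAP, and 5.12, 6.09, 6.85 and 6.23 in JZL184. Its log2 difference from control was 0.65 (SE 0.27, adjusted p = 0.172). Ifngr2, a chain of the interferon gamma receptor, had 0.91 (SE 0.39, adjusted p = 0.176).

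Of the 8 relay genes analysed none was called. Tyk2, the kinase at the type I receptor, was at 6.07, 5.49 and 4.25 FPKM in control, 5.15, 4.60, 4.26 and 3.26 in SAP, and 3.45, 1.75, 1.63 and 2.12 in JZL184. The JZL184 libraries lay below all control libraries, and only JZL184 library 1 overlapped SAP. Its log2 difference was −0.79 against SAP and −1.22 against control (adjusted p = 0.167 and 0.0866). Jak2, which serves the interferon gamma receptor, had −0.01 and 0.86 (adjusted p = 0.983 and 0.126).

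Of the 6 feedback genes, Socs3, an inhibitor of cytokine receptors that Stat3 induces, passed the test in JZL184 against control. It was at 12.75, 13.13 and 19.21 FPKM in control, 44.17, 13.96, 22.35 and 25.46 in SAP, and 117.68, 111.36, 123.70 and 172.71 in JZL184. It rose by 3.01 against control (SE 0.37, adjusted p = 0.0149, 8.05-fold), and its difference from SAP was 2.48 (SE 0.37, adjusted p = 0.0604). Socs1, the inhibitor of JAK kinases that interferon induces, was at 5.00, 4.32 and 5.95 in control, 5.51, 2.29, 2.63 and 4.63 in SAP, and 9.10, 25.94, 5.31 and 31.75 in JZL184. Its log2 difference from SAP was 2.47 (SE 0.62, adjusted p = 0.0965). Samhd1, which depletes nucleotides that viruses need, had −1.62 and −1.94 against SAP and control (adjusted p = 0.109 and 0.0631). The plot of pathway genes sets the Tyk2 and Socs3 levels of the JZL184 libraries side by side.

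**Figure D4:**
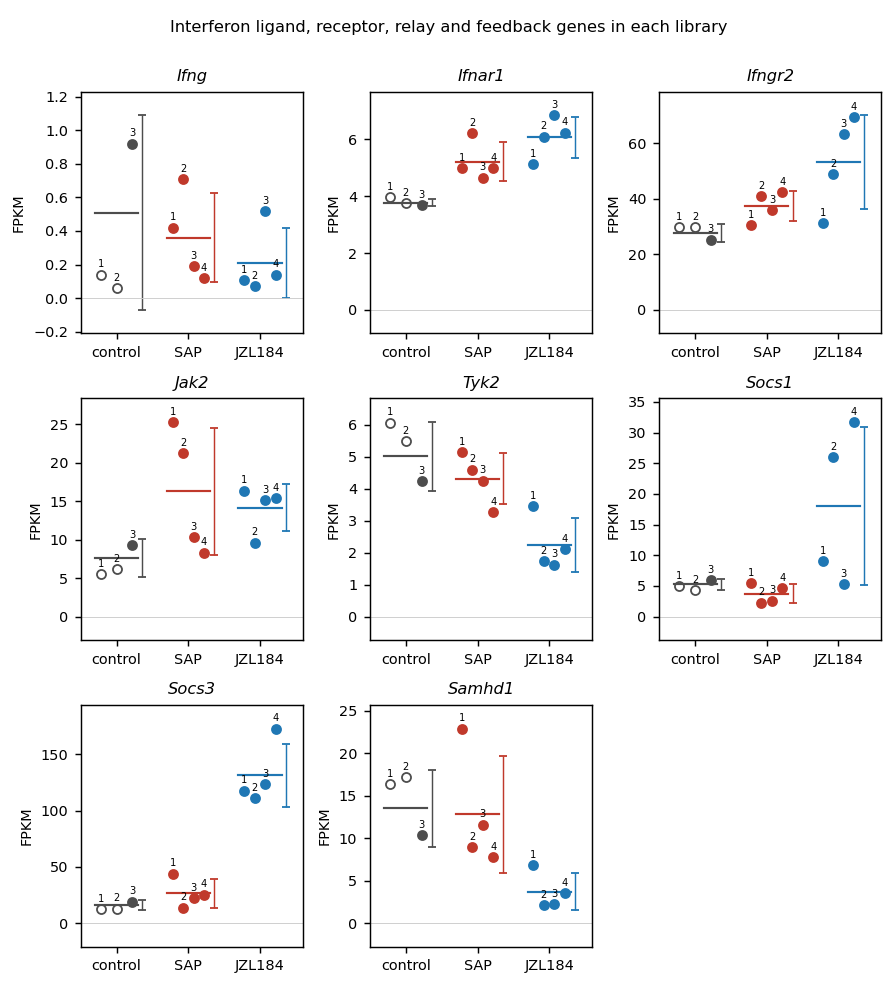
Each panel gives the FPKM of 1 ligand, receptor, relay or feedback gene in every library, with colours, numbers, means and SD bars as for the named interferon-stimulated genes. Tyk2 in the JZL184 libraries (1.63 to 3.45) lies below control, Socs3 (111.36 to 172.71) lies above all others, and Ifng stays under 1 FPKM in every library.

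Of 35 further interferon-stimulated genes tested, 2 were called in JZL184 against control, where 2.16% of all genes were called. Ifi35 fell by 1.64 (SE 0.32, adjusted p = 0.0447). Ifitm3, which keeps viruses from fusing with the cell, rose by 2.08 (SE 0.42, adjusted p = 0.0487). It was at 105.62, 108.24 and 117.80 FPKM in control, 247.76, 160.17, 261.69 and 260.04 in SAP, and 267.58, 561.17, 619.38 and 474.20 in JZL184, with all JZL184 libraries above all others. By mean 26 of the 35 (74.3%) were lower in JZL184 than in SAP, against 52.6% of all genes, with a median log2 fold change of −0.70. Of 11 genes that load or form MHC class I none was called, and B2m, its light chain, was at 713.44 to 1159.28 in control, 799.41 to 1256.96 in SAP and 828.36 to 1482.69 in JZL184.

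Markers of the cells that could carry this RNA differed between the groups, gene by gene in both directions. The summed FPKM of 9 enterocyte markers was 39942 to 40476 in control, 10767 to 24854 in SAP and 4910 to 20836 in JZL184, with the lowest value in JZL184 library 3. Fabp6 made up 43.8% of that sum, and 7 of the 9 genes had a lower mean in JZL184 than in control. The epithelial genes Epcam and Cdh1 were at 0.87 and 1.54 times the control mean in JZL184, and Apoa4 was at 1.52 times. The sum of 6 natural killer and cytotoxic markers was 35.2 to 48.7 in control, 15.9 to 25.9 in SAP and 8.44 to 14.2 in JZL184. Gzmb made up 87.2% of it, only 3 of the 6 genes had a lower mean in JZL184 than in control, Klrd1 was at 1.89 times the control mean, and the defining marker Ncr1 was at 0.24 or less in all libraries.

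The sum of 5 dendritic cell markers was 2.44 to 4.29 in control, 3.41 to 4.30 in SAP and 1.48 to 2.15 in JZL184, and 4 of the 5 genes had a lower mean in JZL184 than in control. That of 5 fibroblast markers was 59.8 to 84.8, 59.4 to 139 and 29.6 to 58.1, with 3 of 5 lower than in control. The sums of the cytotoxic, dendritic and fibroblast lists in JZL184 did not overlap those of the other groups. Flt3 made up 70.2% of the dendritic sum. The other dendritic genes, Clec9a, Xcr1, Siglech and Zbtb46, were at 1.05 FPKM or less in all libraries. Zbtb46 was at 1.71 times the control mean in JZL184. The lowest fibroblast sum was 59.84 in control and 59.44 in SAP, and the highest in JZL184 was 58.07. The fibroblast genes Dcn and Pdgfra were at 1.59 and 1.22 times the control mean in JZL184. In the same order of groups, 7 macrophage markers summed to 346 to 399, 157 to 433 and 101 to 301, and 6 T cell markers to 127 to 149, 47.2 to 146 and 95.5 to 118. The 4 B cell markers summed to 76.99 to 94.91, 10.99 to 73.45 and 50 to 103.61, and 4 endothelial markers to 16.4 to 18.2, 22.0 to 29.2 and 22.5 to 30.9. Neutrophil markers, 5 in number, summed to 0.83 to 2.06, 8.02 to 79.7 and 12.3 to 245. The part of these cells in the results was not tested.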

How the data were processed

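Total RNA of rat ileum was sequenced in 3 control, 4 SAP and 4 JZL184 libraries. The authors trimmed reads with FASTX-Toolkit, aligned them to mRatBN7.2 with HISAT2 and deposited the read count of uniquely aligned reads per gene, without normalization. The authors also deposited FPKM with 2 decimals. For the counting tool and the annotation, no name was given in the sources used here. Depth was 26341299 to 33847135 reads on genes per library.

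Control libraries 1 and 2 were summed to 1 sample (FPKM averaged). Counts of pairs of groups were compared with edgeR 4.0.16 (quasi-likelihood test, TMM, minimum count 10) in R 4.3.3, with adjustment over all genes tested. A call needed an adjusted p under 0.05 with a fold change over 2 or under 0.5. Non-overlap of groups was read from TMM-normalized counts. FPKM were compared by exact permutation. Alternatives were DESeq2 1.42.0, limma-voom (limma 3.58.1, sample quality weights), DESeq2 size factors, no filter, at least 10 reads in every library, no fold threshold, all 3 groups in 1 fit, the replicate number as a block, gene length offsets (span 0.3), separate control libraries, and leaving out libraries. The scripts were tested on simulated data. Values in each library are given for members called, those with the 5 smallest unadjusted p per comparison, the most abundant of each role group and the largest and smallest change. Of the pathway lists, called genes and those with the 2 smallest p per list are eligible, and all measured ligands and receptors. Other genes were named after their values were seen. The members, lists and tests were chosen with earlier results of these data known. Promoters came from RefSeq (GRCr8), whose coordinates were not mixed with those of the counts. 1 gene of the pathway is not reported here. Gene length was derived from counts and FPKM. Tables and plots were made with Python 3.11.15.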

Additional observations from a re-analysis of the deposited data

Results flagged for a closer look

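Each gene's FPKM was examined in the 4 SAP and in the 4 JZL184 libraries for a single library far from the other three, using the gap to its nearest neighbour as a share of the group's range (Dixon's ratio, 95% critical value for 4 libraries). Of 98 such groups 11 exceeded it. The critical value assumes normal and independent values, whereas these genes share the same libraries. The count was therefore not compared with chance, and the share of flags over all genes was not computed.

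In SAP, library 4 stood apart as the highest for Isg15 (ratio 0.884, 884.39 FPKM) and Mx2 (0.839, 132.53 FPKM). In JZL184, library 3 stood apart as the highest for Ifit2 (0.978, 14.82 FPKM), Cxcl11 (0.935, 15.16), Mx1 (0.933, 11.21), Cxcl10 (0.925, 18.94), Gbp4 (0.907, 8.46), Isg20 (0.897, 7.96), Mx2 (0.889, 48.69) and Cxcl9 (0.872, 82.64). In the same library Ifit1 stood apart as the lowest (0.9, 0.06 FPKM). The 9 JZL184 ratios all belong to library 3, whose enterocyte marker sum was 4910 FPKM against 15970 to 20836 in the other JZL184 libraries. The list did not move as 1 in that library, where Epcam, at 3248.56 FPKM, was the highest of the JZL184 libraries and Cdh1, at 157.5, lay within their range of 151.29 to 193.66.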

How the results depend on the processing

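The number of members called depended on the tool and the libraries. In SAP against control it was 0 throughout, except 3 (Ifit2, Ifit3 and Mx1) with DESeq2 and separate control libraries, a setting added after seeing the data. The paper also used DESeq2 with 3 control libraries. In JZL184 against SAP the number was 0, and 10 with DESeq2, 4 with limma-voom, 1 without a filter and 3 with all 3 groups in 1 fit. In JZL184 against control it was 3, and 12 with DESeq2, 18 with limma-voom, 5 without a filter, 1 with all 3 groups in 1 fit, 11 with separate control libraries, 13 with DESeq2 and separate control libraries, and 0 without control libraries 1 and 2, which leaves 1 control sample, assumed to vary like the JZL184 libraries. Leaving out each library gave 0 to 3 members in JZL184 against SAP (3 without JZL184 library 1) and 0 to 8 in JZL184 against control (7 without JZL184 library 1, 8 without JZL184 library 3, and 0 without JZL184 library 2 or 4, or without control library 3, where 1 control sample again remains). Ifit1bl was called in 15 of 19 alternatives of that comparison, and Oas1a and Psmb9 in 14 each. Shares of all genes called stand above for edgeR, DESeq2, limma-voom and edgeR with separate control libraries. For the other settings and for left-out libraries they are not given. Those member counts therefore cannot be set against all genes. The cause of these differences was not tested.

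The median log2 fold change over the members ranged from −0.17 to 0.46 in SAP against control when each library was left out, with the reversal (−0.17) on SAP library 4. It ranged from −1.16 to −0.28 in JZL184 against SAP, with −0.28 without SAP library 4, and from −0.90 to −0.60 in JZL184 against control. Of the alternatives for the 6 members per comparison with the smallest p or the largest or smallest change, 288 kept direction and side of the threshold, 38 moved past it, 14 fell short of it and 0 turned direction. Over all 49 members, 30, 16 and 10 turned direction in at least 1 alternative of SAP against control, JZL184 against SAP and JZL184 against control. Among the log2 differences of single genes printed above, those that turned had main values between −0.23 and 0.20. They were Bst2, Ifit1bl and Irf9 in SAP against control, and Psmb6 in JZL184 against control. In JZL184 against SAP they were Ifit2, Irf1, Gbp2 and Jak2. Larger differences not printed above also turned. Cxcl9 in JZL184 against SAP went from 1.39 to −0.59 without JZL184 library 3. Mx2 in SAP against control went from 1.60 to −0.43 without SAP library 4. Medians of role groups turned as well, as given above for the OAS proteins.

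Deviations of same-numbered libraries from their group means had correlations from −0.45 to 0.12. With so few libraries and no differently numbered pairs beside them, these values cannot show whether the numbers pair the samples. With the replicate number as a block and separate control libraries, the median in SAP against control was −0.17 and 7 members were called in JZL184 against control. With gene length offsets added to the block the values were −0.30 and 8. The block called 0 members in JZL184 against SAP. Shares of all genes called are not given for these block fits. Only 2 control samples limit what either comparison with control can show.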
